A study of Homo sapiens with 11 samples.

Results

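SKP2 ChIP-Seq peaks of HCT116 cells were compared between cells with intact RepID (WT) and cells in which RepID was knocked out (RepID KO). The members were all peaks of both deposited SKP2 lists on chromosomes 1 to 22, which gave 11929 of the 12221 WT peaks and 13518 of the 13885 RepID KO peaks, or 25447 peaks together out of 407030 regions in the 8 lists of the series. HCT116 is a human colon carcinoma line, the knockout was made in it with CRISPR-Cas9, and both SKP2 libraries came from cultures with no drug treatment named in the labels, precipitated with the same antibody. Chromatin context came from 5 further lists, namely the replication origins of 1 RepID KO clone of HCT116, mapped from nascent strands, and the origins, CUL4A, H3K4me3 and H3K9me3 regions of U2OS, a human osteosarcoma line with RepID present. The U2OS lists describe another cell line, and no origin list of WT HCT116 cells was used here.

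SKP2 is the F-box protein through which the SCF ubiquitin ligase, built on the scaffold CUL1, recognises substrates such as the licensing factor CDT1 and the CDK inhibitor p27. RepID, also known as PHIP or DCAF14, is a substrate receptor of the other cullin ligase that acts on CDT1, CRL4, whose scaffold is CUL4A, and it binds a subset of replication origins. H3K4me3 marks active promoters, H3K9me3 marks heterochromatin, and short nascent strands are copied at origins, so their enrichment maps where replication starts.

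Each genotype had 1 SKP2 library, so no test between genotypes was possible and every comparison below is between these lists. Shares of peaks carry Wilson 95% intervals and differences of shares carry Newcombe 95% intervals. These cover counting error only and treat neighbouring peaks as independent, although peaks of 1 library are not replicates. The depth of the libraries is unknown from peak lists, so the RepID KO to WT ratio of peak numbers, 1.13 (95% interval 1.11 to 1.16), is a property of the lists and cannot be told apart from a difference in sequencing or in the control. The targeted gene could not be checked from these lists. Genes and sequences at the peaks were not assigned here.

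The SKP2 peaks of both genotypes were short and covered little of the genome. The WT list had 4.14 peaks per Mb and covered 0.201% of chromosomes 1 to 22, and the RepID KO list had 4.69 peaks per Mb and covered 0.231%. The median peak width was 361 bp (95% interval 356 to 366) in WT and 369 bp (363 to 374) in RepID KO. The difference was 8 bp. Taken between opposite ends of the median intervals it ranged from -3 to 18 bp, which is wider than a 95% interval of the difference. It was -3 bp once the RepID KO list was reduced to its 11929 highest scores, so its sign was not stable. The widest peak spanned 4213 bp in WT and 4900 bp in RepID KO. Peaks under 300 bp made up 33.4% of the WT and 33.8% of the RepID KO list, and peaks of at least 1000 bp made up 5.59% and 6.15%.

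Most SKP2 peaks of either genotype had no counterpart in the other list. A peak was called shared when at least 1 bp overlapped a peak of the other genotype. This held for 1635 WT peaks, 13.7% (13.1 to 14.3), and for 1633 RepID KO peaks, 12.1% (11.5 to 12.6), which formed 1641 pairs. Only 6 WT peaks met 2 or more RepID KO peaks, and 8 RepID KO peaks met 2 or more WT peaks, so the pairs were nearly all 1 to 1. Within pairs the peaks lay on top of each other, with a median overlap of 338 bp, a median of 100% of the shorter peak covered and a median offset of 78.5 bp between centres. The centres were within 100 bp of each other in 907 pairs (55.3%). The WT peak was the wider one in 850 pairs and the RepID KO peak in 779.

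Shared peaks came mainly from the top of both lists. The deposited score was used to order peaks within a list, and its level was not compared between lists. Each list was divided by score into quintiles, 5 groups of equal size. In the highest score quintile, 42.0% of the WT list and 43.2% of the RepID KO list were shared, and in the lowest quintile 1.80% and 0.962%. Both members were in the highest quintile in 973 pairs (59.3%). Over the 1641 pairs the order of the WT and RepID KO scores had a Spearman rho of 0.898, a description of pairs that were chosen by their overlap. Peaks of at least 1000 bp were shared more often than those under 300 bp. The shares were 39.1% (35.5 to 42.9) against 5.75% in WT and 28.8% (25.9 to 32.0) against 5.05% in RepID KO. From 300 to 500 bp they were 15.9% in WT and 16.4% in RepID KO, and from 500 to 1000 bp 15.5% and 12.2%. The widest class also had the highest median score in each list, and a wide peak overlaps another more easily. The parts of score and width were not tested.

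At the very top the sharing was uneven between the genotypes. Of the 100 RepID KO peaks with the highest scores 88 (80.2% to 93.0%) met a WT peak, whereas of the 100 highest WT peaks 58 (48.2% to 67.2%) met a RepID KO peak. The share was 76.2% (72.3 to 79.7) against 55.2% (50.8 to 59.5) for the top 500 and 68.0% against 53.5% for the top 1000. At the top 5000 the shares were 27.7% and 27.5%, and the gap had closed. High-scoring WT peaks without a RepID KO counterpart were therefore more numerous than the converse, 465 against 320 among the top 1000. These were for the most part not near misses, since 30 of the 465 WT peaks and 32 of the 320 RepID KO peaks had a peak of the other list within 2 kb.

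Named sites show both situations, with coordinates in hg19. The pair with the best ranks was on chromosome 14, WT chr14:69365608-69366353 with score rank 7 and RepID KO chr14:69365574-69366354 with rank 1, at an origin in both origin lists and in a CUL4A and an H3K9me3 region. The next were on chromosome 9, WT chr9:98330025-98330826 with rank 1 and RepID KO chr9:98330163-98330816 with rank 9, at a RepID KO origin and a CUL4A region, and on chromosome 2, WT chr2:152930732-152931374 with rank 16 and RepID KO chr2:152930753-152931249 with rank 5. The best pair in an H3K4me3 region was on chromosome 5, WT chr5:856430-857175 with rank 12 and RepID KO chr5:856646-857004 with rank 18, and this site lay in all 5 context lists. These 4 sites carried SKP2 peaks of high rank in both genotypes.

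Among peaks found in 1 list only, the highest WT peak was chr11:1092728-1093531 with rank 2, and the nearest RepID KO peak was 119 kb away. The following WT-only peaks, chr10:42599777-42600085 with rank 3 and chr8:142955259-142955654 with rank 4, had RepID KO peaks 1.52 kb and 1.24 kb away. The highest RepID KO-only peak was chr21:9698829-9699944 with rank 2, and its nearest WT peak was 5.08 kb away. It was followed by chr15:23684963-23686285 with rank 4 and chr5:180472811-180473051 with rank 7, with WT peaks 112 kb and 80.5 kb away. All 6 sites lay in a RepID KO origin, which was usual at such scores. Among the 100 highest scores of each list, 38 of the 42 WT-only and all 12 RepID KO-only peaks did. A list-only peak in this sense can thus have a neighbour close by or none within 100 kb.

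Distances extended this picture to all peaks. The median distance from a WT peak to the nearest RepID KO peak, measured between nearest ends with overlap as 0, was 37.5 kb (95% interval 36.0 to 39.2), and from a RepID KO peak to the nearest WT peak 44.1 kb (42.7 to 45.4). With the RepID KO list cut to its highest scores for equal numbers, the order turned, to 42.5 kb and 39.6 kb. That cut changes list size and removes low scores together, so their parts cannot be told apart. Distances grew as scores fell, from a median of 6.03 kb in the highest to 70.1 kb in the lowest score quintile of WT and from 4.34 kb to 80.2 kb in RepID KO. Allowing a gap added few partners, since 14.8% of WT and 13.1% of RepID KO peaks had a peak of the other list within 1 kb.

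**Figure D1:**
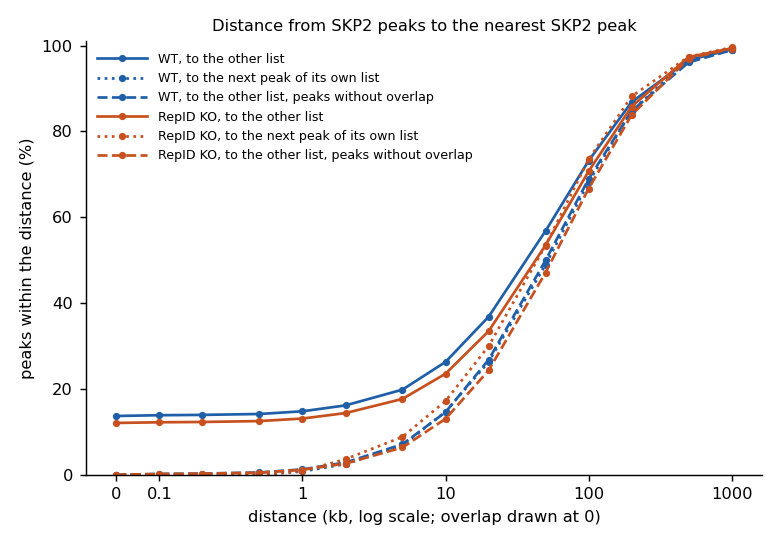
Share of SKP2 peaks (y axis, %) whose nearest SKP2 peak lies within a given distance (x axis, kb, log scale with overlap at 0), for WT (blue) and RepID KO (orange), to the other list (solid), to the other list for peaks without overlap (dashed) and to the next peak of the same list (dotted). The solid lines start at 13.7% and 12.1%, and the dashed and dotted lines start at 0 and join them toward 100 kb.

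Peaks without an overlap lay about as far from the other genotype's peaks as from peaks of their own list. For WT-only peaks the median distance was 50.05 kb to the nearest RepID KO peak and 55.4 kb to the next WT peak, and for 52.3% (51.3 to 53.2) of them the RepID KO peak was the nearer one. For RepID KO-only peaks the medians were 55.9 kb to WT and 46.2 kb to the next RepID KO peak, and for 45.5% (44.7 to 46.4) of them the WT peak was the nearer one. The longer list offers more neighbours in both cases. Within their own list, 17.2% (16.6 to 17.8) of RepID KO and 14.7% (14.1 to 15.4) of WT peaks lay within 10 kb of another peak. The RepID KO list is the longer one, and these shares were not repeated with equal list sizes.

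By region the counts of the lists rose and fell together, although most single sites were not shared. Over 2894 windows of 1 Mb, windows held 4.12 WT peaks (SD 3.86 over windows) and 4.67 RepID KO peaks (SD 4.46) on average, and the counts had a Spearman rho of 0.710 and a Pearson r of 0.751. Windows share mappability, base composition and gaps of the assembly, which were not removed, so the correlation is a description and has no p. Both lists had at least 1 peak in 2306 windows (79.7%), and in 1437 of these no peak was shared. Among the 1018 windows with 10 or more peaks of both lists together, 363 contained no shared peak. Windows with at least 5 peaks of one genotype and 0 of the other were rare, 11 for WT and 14 for RepID KO.

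SKP2 peaks were concentrated to a similar degree in both genotypes. The 289 windows with the most peaks held 31.1% of the WT and 31.0% of the RepID KO list, each list ranked by itself, and 386 and 429 windows had 0 peaks. Both lists were denser where origins were dense. From the lowest to the highest quintile of windows by number of RepID KO origins, the WT density rose from 1.19 to 8.99 and the RepID KO density from 1.32 to 10.1 peaks per window, and the shared part of the WT peaks rose from 5.66% to 18.5%. The window counts of WT and RepID KO had Spearman rho values of 0.749 and 0.754 with RepID KO origins, 0.741 and 0.750 with CUL4A, 0.647 and 0.663 with H3K9me3, 0.610 and 0.613 with U2OS origins, and 0.599 and 0.585 with H3K4me3. The values with RepID KO origins and CUL4A were above the rho of 0.710 between the SKP2 lists, so the regional likeness was not particular to them. The context lists themselves moved together over these windows, with a rho of 0.912 between RepID KO origins and CUL4A, and none was singled out.

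**Figure D2:**
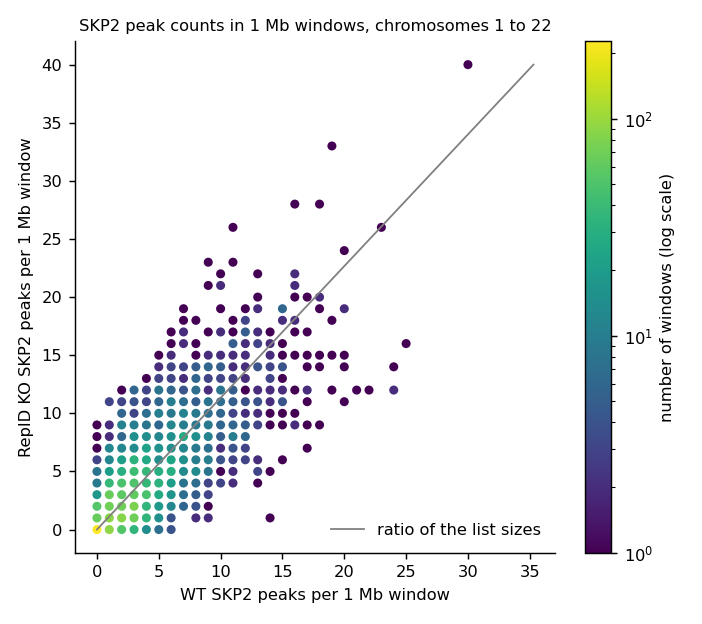
RepID KO SKP2 peaks (y axis, count per 1 Mb window) against WT SKP2 peaks (x axis, count per 1 Mb window) for 2894 windows of chromosomes 1 to 22, with colour for the number of windows at each point (log scale) and a line at the ratio of the list sizes, 1.13. Counts spread around the line, and the window with the most peaks holds 30 WT and 40 RepID KO peaks.

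The densest window was 49 to 50 Mb of chromosome 4, beside the centromere, with 30 WT and 40 RepID KO peaks, of which 23 in each list were shared. There 29 of the 30 WT and 35 of the 40 RepID KO peaks were in the highest score quintile of their list. All 30 WT peaks and 38 RepID KO peaks met a RepID KO origin, and 30 and 36 met a CUL4A region. No filter for repeats or poorly mappable sequence was applied in this comparison, for this or any other named window or peak. The part of such sequence in the signal was not tested. The next densest windows were 134 to 135 Mb of chromosome 10 with 19 WT and 33 RepID KO peaks, 143 to 144 Mb of chromosome 8 with 23 and 26, 60 to 61 Mb of chromosome 20 with 18 and 28, and 132 to 133 Mb of chromosome 12 with 20 and 24. Those 4 windows held between 5 and 10 shared WT peaks each, a smaller part of their peaks than on chromosome 4.

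Some windows departed from the list ratio. With the RepID KO count scaled to the WT list, RepID KO was at least 2-fold higher in 127 of the 1018 windows with 10 or more peaks, a background of 12.5%, and WT was at least 2-fold higher in 72, a background of 7.07%. With counts this small and 1 library per genotype, these windows are a description. The windows high in RepID KO were poorer in context, with a median of 39 RepID KO origins and 24 CUL4A regions, against 60 and 37 in the 819 windows with neither excess. The windows high in WT had medians of 55.5 and 32. In WT and RepID KO peaks, the 127 windows held 451 and 1358, the 72 windows 778 and 341, and the 819 windows 6847 and 7731. A 2-fold ratio is reached more easily where peaks are few, and peak counts rose with origin counts. The part of this selection in the context medians was not tested.

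The largest RepID KO excess was at 131 to 132 Mb of chromosome 11, with 26 RepID KO and 11 WT peaks, followed by 82 to 83 Mb of chromosome 16 with 23 and 9, 134 to 135 Mb of chromosome 10, 0 to 1 Mb of chromosome 8 with 19 and 7, and 1 to 2 Mb of chromosome 10 with 21 and 9. On chromosome 11 only 7 of the 26 RepID KO peaks met a RepID KO origin, and on chromosome 16 only 3 of the 23 did. The largest WT excesses were at 0 to 1 Mb of chromosome 7 and 86 to 87 Mb of chromosome 16, each with 24 WT and 12 RepID KO peaks, then 21 to 22 Mb of chromosome 2 with 14 and 1, 44 to 45 Mb of chromosome 21 with 24 and 14, and 1 to 2 Mb of chromosome 7 with 22 and 12. In the chromosome 7 window at 0 to 1 Mb, 21 of the 24 WT peaks met a RepID KO origin and all 24 met a CUL4A region, and in the chromosome 16 window 22 of the 24 met a RepID KO origin. The chromosome 2 window differed from these, with 5 of its 14 WT peaks at a RepID KO origin and 4 of the 14 in the lowest score quintile.

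Whole chromosomes followed the list ratio closely. RepID KO had more peaks than WT on 21 of the 22 chromosomes, and on 20 of them the interval of the ratio covered 1.13. The ratio was highest on chromosome 15, 1.30 (1.13 to 1.50), and chromosome 5, 1.28 (1.15 to 1.43), and lowest on chromosome 4, 0.993 (0.881 to 1.12), and chromosome 12, 1.02 (0.911 to 1.14). Only the intervals of chromosomes 4 and 5 did not cover the list ratio. Chromosome 19, rich in genes, was the densest with 9.10 WT and 11.3 RepID KO peaks per Mb, and chromosome 13 the sparsest with 2.48 and 2.75.

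SKP2 peaks of both genotypes met origins and CUL4A regions far more often than the base share those lists cover. RepID KO origins covered 9.83% of chromosomes 1 to 22 and met 49.4% (48.5 to 50.3) of WT and 45.9% of RepID KO peaks. U2OS origins covered 14.4% and met 54.8% and 56.8%, and CUL4A regions covered 5.39% and met 36.2% and 34.8%. H3K9me3 covered 0.904% and met 20.3% and 18.9%, and H3K4me3 covered 1.91% and met 9.01% and 6.63%. A peak of a few times 100 bp meets a region more easily than a single base does, so the base shares are only a reference.

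Differences between the genotypes were of a few percentage points, and relative to the WT share the widest was that of H3K4me3, with a RepID KO to WT ratio of 0.736. As RepID KO minus WT they were -3.50 percentage points (-4.72 to -2.27) for RepID KO origins, 2.01 (0.792 to 3.24) for U2OS origins, -1.47 (-2.65 to -0.293) for CUL4A, -2.38 (-3.05 to -1.72) for H3K4me3 and -1.35 (-2.33 to -0.377) for H3K9me3. The RepID KO list is the longer one and its lowest scores had the least context. With both lists at 11929 peaks the differences for RepID KO origins, CUL4A and H3K9me3 changed sign, to 0.813 (-0.456 to 2.08), 2.04 (0.810 to 3.26) and 0.159 (-0.862 to 1.18) points. The U2OS origin and H3K4me3 differences kept their sign, at 5.63 (4.38 to 6.88) and -1.98 (-2.67 to -1.29). By chromosome, with the full lists of unequal length, the WT share was higher on 19 of 22 for H3K4me3 and for RepID KO origins. It was higher on 15 for H3K9me3, 14 for CUL4A and 9 for U2OS origins. These chromosome counts were not repeated with equal list sizes, where the RepID KO origin difference changed sign.

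**Figure D3:**
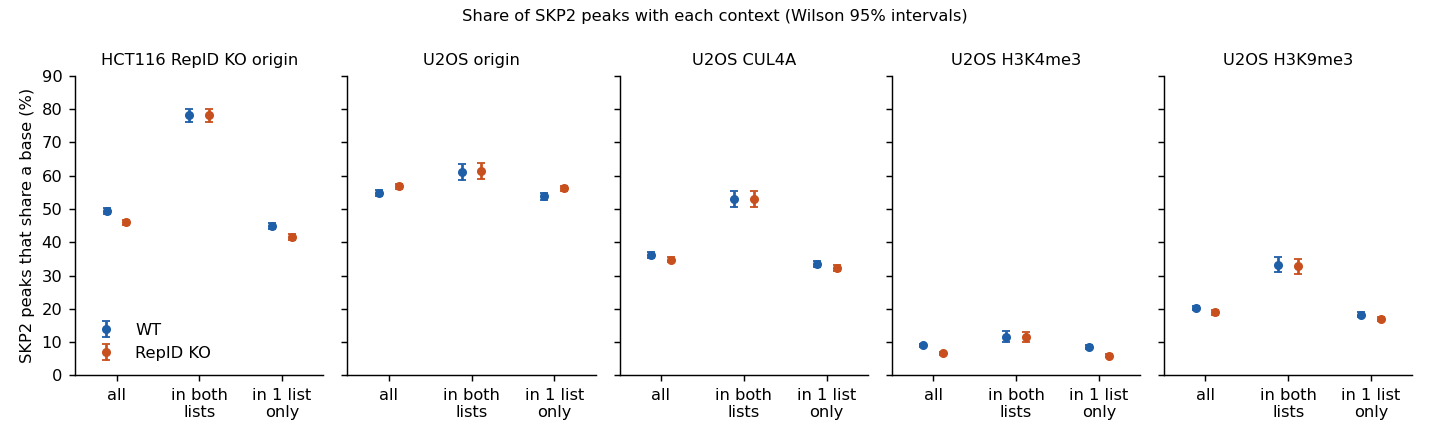
Share of WT (blue) and RepID KO (orange) SKP2 peaks that share a base with each context list (y axis, %, bars are Wilson 95% intervals), for all peaks, peaks in both lists and peaks in 1 list only. Peaks in both lists have the higher shares in all 5 panels, for RepID KO origins 78.2% against 44.9% and 41.5% of WT-only and RepID KO-only peaks. Shared peaks came mainly from the highest scores, and score is not held equal in these panels. Within the highest score quintile, U2OS origins were met more often by list-only peaks, 68.7% in WT and 81.6% in RepID KO. The shares of all peaks of that quintile were 64.1% and 73.2%.

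The difference for H3K4me3, the promoter mark, kept its sign with equal list sizes, as did that for U2OS origins. The lower share in RepID KO concerned the peaks found in 1 list only, 8.60% in WT and 5.97% in RepID KO, since the shared peaks are the same sites in both lists and had 11.6% and 11.5%. The RepID KO list met 888 of the 24227 H3K4me3 regions and the shorter WT list met 1058, the only context list of the 5 of which RepID KO peaks met fewer regions. Both lists met 211 of them, 19.9% of the regions met by WT and 23.8% of those met by RepID KO. In the score quintiles from the highest to the lowest the shares were 13.5%, 10.9%, 8.34%, 6.87% and 5.45% in WT and 12.02%, 7.43%, 4.99%, 4.47% and 4.22% in RepID KO. Among all peaks of the highest quintile the difference of -1.52 points had an interval from -3.37 to 0.316, whereas among those found in 1 list only it was -2.73 points (-5.21 to -0.271), from 14.6% in WT and 11.9% in RepID KO. Among the 1000 highest scores, shared peaks included, the shares were 14.7% and 14.9%, a difference of 0.200 points (-2.92 to 3.32).

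The H3K4me3 difference was also local to the peak. At peak centres H3K4me3 regions covered 8.04% of WT and 5.56% of RepID KO peaks, while at 9 to 10 kb from the centre they covered 2.98% and 3.16%, so the centre stood 2.70-fold and 1.76-fold above its surroundings. For H3K9me3 the centre stood 10.0-fold above the flank in WT and 9.31-fold in RepID KO, for CUL4A 2.53-fold and 2.56-fold, for U2OS origins 1.98-fold and 2.12-fold and for RepID KO origins 1.85-fold and 1.77-fold. All 5 context lists thus peaked at SKP2 centres in both genotypes, with the largest fold for H3K9me3. Its regions were also the narrowest, with a median of 322 bp against 1902 to 2400 bp in the other lists. They covered the least sequence, 0.904%. The fold depends on width and coverage, so its size was not compared between context lists. Peaks with H3K4me3 alone made up 5.91% of the WT and 4.37% of the RepID KO list, peaks with both marks 3.102% and 2.26%, and peaks with H3K9me3 alone 17.2% and 16.7%.

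**Figure D4:**
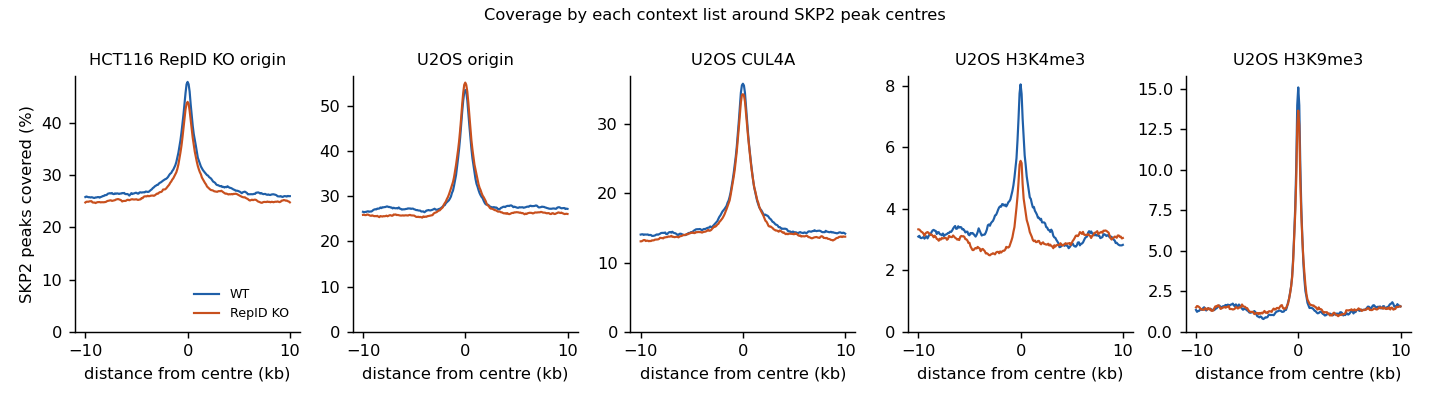
Share of SKP2 peaks (y axis, %) covered by each context list at each distance from the peak centre (x axis, kb, along the chromosome), for WT (blue) and RepID KO (orange), each panel with its own y axis from 0. H3K4me3 reaches 8.04% at WT and 5.56% at RepID KO centres from similar levels at 9 to 10 kb, while the curves of the other lists lie close together.

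Origins separated the lists by score. In the highest score quintile, RepID KO origins were met by 82.2% of WT and 82.6% of RepID KO peaks, and in the lowest by 25.2% (23.5 to 27.0) and 17.1% (15.8 to 18.6). The quintiles were cut within lists of unequal length, so the lowest RepID KO quintile reached ranks beyond the end of the WT list. With both lists at 11929 peaks, RepID KO origins were met by 49.4% of WT and 50.3% of RepID KO peaks. U2OS origins showed the gap at the other end, with 64.1% (62.2 to 66.0) of WT and 73.2% (71.5 to 74.9) of RepID KO peaks in the highest quintile and 33.3% and 32.4% in the lowest. CUL4A differed at both ends, with 57.7% and 61.7% in the highest quintile and 14.9% and 10.99% in the lowest. For H3K9me3 the shares fell from 37.7% to 7.25% in WT and from 35.2% to 8.25% in RepID KO.

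**Figure D5:**
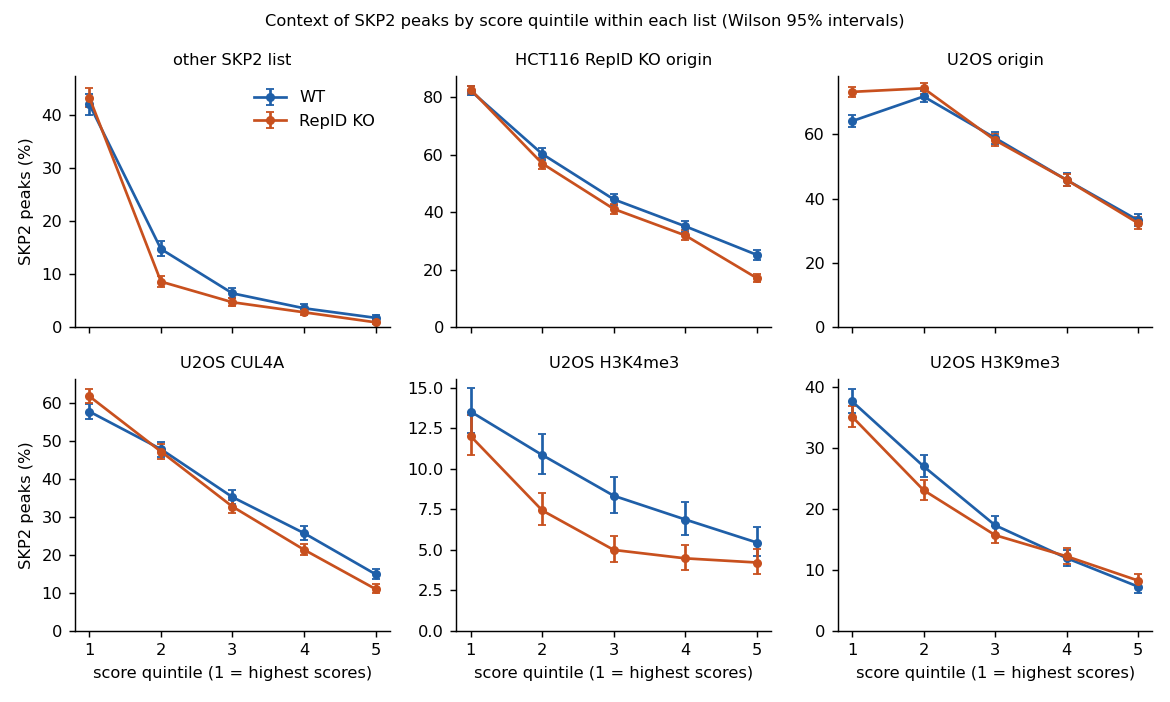
Share of SKP2 peaks (y axis, %, bars are Wilson 95% intervals) that meet the other SKP2 list or each context list, by score quintile within the WT (blue) and RepID KO (orange) list (x axis, 1 is the highest scores). All shares fall toward low scores except that U2OS origins are highest in quintile 2, and the lists differ most at U2OS origins in quintile 1 (64.1% and 73.2%) and at RepID KO origins in quintile 5 (25.2% and 17.1%). Quintile 5 of the longer RepID KO list reaches ranks beyond the end of the WT list.

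The U2OS origin difference was large among high-scoring peaks found in 1 list only. In the highest quintile without an overlap, a U2OS origin was met by 68.7% of the WT list (1385 peaks) and 81.6% of the RepID KO list (1535 peaks), a difference of 13.0 points (9.84 to 16.1), and a CUL4A region by 56.4% and 63.6%, a difference of 7.19 points (3.64 to 10.7). RepID KO origins were met by 78.8% and 79.0% of the same peaks, a difference of 0.250 points (-2.71 to 3.22). The histone marks went the other way among these peaks, with -2.73 points for H3K4me3, as given above, and -3.09 points (-6.55 to 0.364) for H3K9me3, whose interval included 0.

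Both origin lists jointly divided the peaks further. Peaks at an origin in both origin lists made up 36.3% (35.4 to 37.1) of WT and 34.1% (33.3 to 34.9) of RepID KO peaks, and those at a RepID KO origin alone 13.2% and 11.9%. Peaks at a U2OS origin alone made up 18.5% (17.8 to 19.2) of WT and 22.7% (22.05 to 23.5) of RepID KO peaks. No origin of either list was met by 32.0% and 31.3%. None of the 5 context lists was met by 3097 WT peaks (26.0%) and 3348 RepID KO peaks (24.8%), and all 5 were met by 244 (2.05%) and 197 (1.46%). Among the shared peaks, which came mainly from the highest scores, 7.71% and 7.47% met none.

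Within these contexts, the lists mostly met different regions. WT peaks met 5503 and RepID KO peaks 5777 of the 83872 RepID KO origins, and 1514 origins were met by both, 27.5% of the WT set and 26.2% of the RepID KO set. In 1198 of these the peaks themselves overlapped, and in 316 the genotypes had separate peaks inside the same origin, with a median origin width of 13800 bp against 2000 bp for all RepID KO origins. The same comparison gave 978 and 306 U2OS origins, 817 and 173 CUL4A regions, 183 and 28 H3K4me3 regions and 521 and 16 H3K9me3 regions. Regions met by both genotypes thus mostly had overlapping peaks, but region width was not held equal. Separate peaks made up 23.8% for U2OS origins, 20.9% for RepID KO origins and 2.98% for H3K9me3. H3K9me3 regions had a median width of 322 bp, near that of a SKP2 peak, which leaves little room for separate peaks.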

How the data were processed

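SKP2 ChIP-Seq of HCT116 WT and RepID KO cells had 1 library and 1 peak list each. Per the methods and the submitters' processing notes, the authors called SKP2 peaks with MACS2 in broad mode against IgG and origins and CUL4A regions with SICER (200 bp windows, 600 bp gap, false discovery rate 0.01 for origins and 1e-05 for CUL4A), on hg19. IgG is the control that the methods name, while the HCT116 control samples of the series are titled as input. Which of them served for the SKP2 lists could not be told here. The aligner settings are not given in the sources used here. The deposited SKP2 lists hold positions, a score per peak of unstated scale, which is 10 times the last column to within 1, and 3 further columns without stated meaning, which were not used. The score of the deposited origin and CUL4A lists was not used. For H3K4me3 and H3K9me3 the deposited columns are those of a MACS2 broadPeak file, although SICER is the caller named for histone marks, and the −log10 q-values of the authors served only for a stricter threshold of 2. The total reads of the libraries are not in peak lists, so depth and the precision it gives are unknown.

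Overlaps of at least 1 bp, distances between nearest ends, counts in 1 Mb windows and profiles in 100 bp bins were computed with Python 3.11.15, NumPy 2.4.6, pandas 2.3.3 and SciPy 1.17.1, and drawn with matplotlib 3.10.9. Chromosome lengths were taken as the largest end in the 8 lists. A peak with a base in common with a list was counted as meeting it. Score quintiles were formed within each list. The overlap and distance functions were checked on simulated lists, where 0 of 12000 answers differed from a direct search. With 1 library per genotype no test was made. Windows named were the 5 with the most peaks and the 5 with the largest excess in each direction, chromosomes the 2 highest and 2 lowest ratios, and peaks the 3 best shared pairs, the best pair with each of H3K9me3, H3K4me3 and a RepID KO origin, and the 3 highest list-only peaks of each genotype. The members, lists and comparisons were chosen with earlier results of these data known. Alternatives were 50% coverage, a gap of 2 kb, 1 kb around centres, the 50% of peaks with the highest scores, equal list sizes, all chromosomes, removal of the 1% densest windows, centre distances, windows of 500 kb and 5 Mb, and windows with a peak. The stricter histone threshold was chosen after seeing the data. A planned list of ubiquitin ligase and licensing genes was not used, because no hg19 annotation was at hand.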

Additional observations from a re-analysis of the deposited data

How the results depend on the processing

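Of 72 values recomputed under an alternative, 45 moved by less than their counting interval, and none came from a test. The share of WT peaks that were shared was 10.7% with 50% of the peak covered, 16.2% with a gap of 2 kb, 23.6% in the 50% with the highest scores and 12.8% without the 1% densest windows, and for RepID KO peaks it was 9.77%, 14.4%, 20.8% and 11.3%, and 13.6% with equal list sizes. In the 50% with the highest scores the RepID KO minus WT differences were -2.02 points for RepID KO origins, 4.38 for U2OS origins, 0.850 for CUL4A and -3.10 for H3K9me3, and with equal list sizes 0.813, 5.63, 2.04 and 0.159. The sign changed for CUL4A under both alternatives and for RepID KO origins and H3K9me3 with equal list sizes alone. The H3K4me3 difference stayed between -2.63 and -1.98 under these alternatives. Outside these 72 values, it was 0.200 points (-2.92 to 3.32) among the 1000 highest scores of each list. Among the 2000 highest it was -0.600 points (-2.73 to 1.53). The median distance from WT to RepID KO peaks was 32061 bp in the 50% with the highest scores, 42506 bp with equal list sizes and 40630 bp without the densest windows, and from RepID KO to WT peaks 39610 bp with equal list sizes and 46801 bp without the densest windows. The window rho was 0.581 for windows of 500 kb, 0.890 for 5 Mb and 0.649 in windows with a peak. The width difference was -1 bp in the 50% with the highest scores and -3 bp with equal list sizes. The cause of these changes was not tested beyond the construction of each alternative. No paired analysis was possible because each genotype had 1 sample. With 1 library of unknown depth per genotype, differences between these lists cannot be told apart from differences between libraries.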

Other observations

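The narrowest and the widest SKP2 peaks differed in context in both genotypes. RepID KO origins were met by 39.6% (38.1 to 41.2) of WT and 36.9% (35.5 to 38.3) of RepID KO peaks under 300 bp, and by 72.3% (68.7 to 75.5) and 64.3% (61.0 to 67.5) of those of at least 1000 bp. H3K9me3 was met by 15.1% and 14.2% of the narrow and by 33.6% and 32.8% of the wide peaks. CUL4A was met by 30.3% and 29.1% of the narrow and by 49.8% and 51.1% of the wide peaks. The classes between did not form a steady rise, since from under 300 bp to at least 1000 bp the U2OS origin share of WT peaks was 49.97%, 58.7%, 55.6% and 57.1%, and that of RepID KO peaks 52.0%, 59.5%, 58.2% and 63.5%. The H3K4me3 share of WT peaks was 8.08%, 10.2%, 7.94% and 13.2%. The H3K4me3 share was lower in RepID KO in each of the 4 width classes, with 13.2% (10.8 to 15.97) and 11.8% (9.76 to 14.1) in the widest. A wide peak meets any region more easily than a narrow one, and its part in these shares was not tested.

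Within each list the context features went together. Among WT peaks at a RepID KO origin 57.1% met CUL4A, against 15.9% of the others, and among RepID KO peaks the shares were 56.5% and 16.3%. H3K4me3 was met by 15.0% (14.1 to 15.96) of WT and 10.9% (10.1 to 11.7) of RepID KO peaks at a RepID KO origin, and by 3.13% (2.72 to 3.60) and 3.01% (2.64 to 3.43) of peaks away from one. H3K9me3 was met by 25.8% and 21.96% of the peaks at a RepID KO origin, and by 14.8% and 16.3% of the others.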
